A study of Zea mays with 4 samples.

Results

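Transcripts of 10 maize genes at the entry and toward the end of lignin biosynthesis were measured by RNA-seq in seedlings after a day of chilling. The list held 8 loci of the phenylalanine ammonia-lyase (PAL) family and the brown midrib genes bm1 and bm3, chosen by locus identifier from the 46430 loci of the count table. It was chosen with earlier results of these data known. The table gives identifiers only, so the family and gene names are those of the list itself. Whole seedlings of the wild-type inbred line B73, the source of the maize reference genome, were sampled in 2 groups of 2 libraries. Cold seedlings spent 24 h at 4 °C. Control seedlings continued at 25 to 28 °C. Both groups had first grown in soil at that temperature for 9 days, with a cycle of 16 h of light and 8 h of dark. Material came from 10 plants aged 10 days, and nothing in the labels ties the libraries of a group to separate plants or growth batches. The p-values therefore measure only the spread between these libraries, which may be technical. The names of the count columns give both control libraries the same tag and the cold libraries different ones. What the tags stand for is not stated.

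PAL removes ammonia from phenylalanine and so opens the phenylpropanoid pathway, from which plants make lignin, flavonoids and many phenolic defence compounds. Later enzymes modify the aromatic ring and reduce the side chain to give monolignols, the alcohols that polymerise into lignin in the cell wall. Bm3 is known to encode caffeic acid O-methyltransferase, which methylates monolignol precursors, and bm1 encodes cinnamyl alcohol dehydrogenase, which reduces the aldehydes to monolignols in the last step. Maize plants that lack either function have reddish-brown leaf midribs and altered lignin, which gave the genes their name.

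The libraries held 24176378 and 20942576 fragments in cold and 28493929 and 23713326 in control, each fragment being a sequenced read pair assigned to a gene. Transcripts with mitochondrial locus tags took 0.134% and 0.112% of the cold fragments, against 0.0765% and 0.0701% of the control fragments, and the part of this difference in the results below was not tested. Fragments with plastid locus tags were present in every library at 0.0160% to 0.0244%, which does not identify the tissue. Nuclear marker genes have no names in the table, so the seedling label was not checked.

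After cold, 7 of the 8 PAL genes and both brown midrib genes were higher. The calls use edgeR's quasi-likelihood test with a Benjamini-Hochberg adjusted p under 0.05 over all 23169 genes that passed a low-count filter. The remaining PAL gene had no fragment and was not tested. In each of the 9 tested genes both cold libraries lay above both control libraries. Across all tested genes, 27.0% were called higher and 27.0% lower, while 38.2% had both cold libraries above both control libraries and 41.2% had both below. The median log2 fold change was 1.17 over the 7 tested PAL genes and -0.03 over all tested genes. Of these PAL genes, 5 passed the filter through both conditions, with log2 fold changes from 0.64 to 1.56. Of the other 2, Zm00001d051166 passed through the cold libraries alone, so a difference in that direction was built into its being tested. Zm00001d017276 reached the filter's cutoff in 2 cold libraries and 1 control library. The cold libraries alone would have kept it, so the filter favoured a rise but did not fix the direction. In whole seedlings, more RNA per cell and more cells of an expressing type cannot be told apart.

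**Figure D1:**
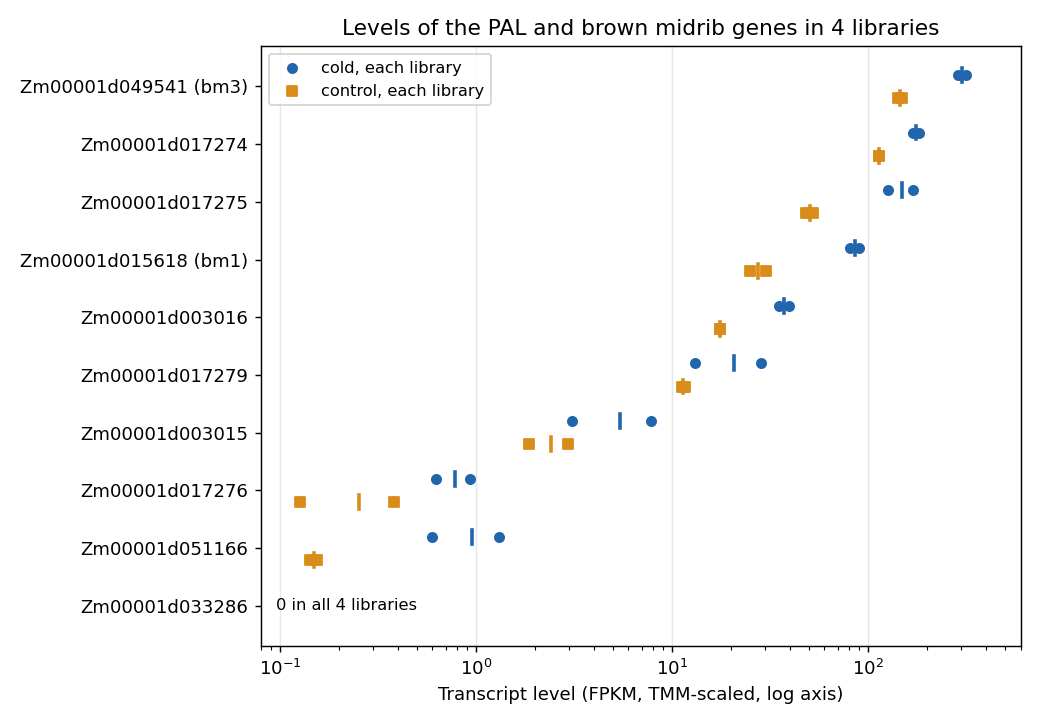
Transcript levels (FPKM, logarithmic axis) of the 10 genes, ordered by control mean, with a point for each cold library (blue circles) and each control library (orange squares) and a vertical bar for the group mean. In the 9 genes with fragments both cold points lie to the right of both control points, and Zm00001d033286 is listed at 0.

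Summed over the 8 genes, PAL transcripts took 0.109% and 0.113% of all cold fragments, against 0.0635% and 0.0680% of control fragments. Per length of exon, the summed level was 390 ± 38.7 FPKM in cold and 196 ± 3.81 FPKM in control (SD, n = 2 each), a ratio of 1.99. FPKM here is fragments per kilobase of exon at a common library size, with library sizes scaled by TMM factors, which adjust for differences in library composition. This sum is a description and was not tested.

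The most abundant PAL transcript came from Zm00001d017274, a minus-strand gene with 3 exon blocks on chromosome 5 (191418711 to 191422345, B73 RefGen_v4). It had 183 and 170 FPKM in cold, against 113 and 114 FPKM in control. Its level was higher in both cold libraries and almost equal in the control pair. The rise was the smallest of the tested members on the log2 scale, at 0.64 with an SE of 0.14 (adjusted p = 0.0075). When control replicate 1 or control replicate 2 was left out the adjusted p was 0.081 or 0.096, although the log2 fold change remained 0.65 and 0.63.

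Zm00001d017275, the next most abundant, lies 45084 bases farther along the chromosome on the same strand (191467430 to 191471500) and has 2 exon blocks. It had 127 and 170 FPKM in cold, against 48.5 and 52.4 FPKM in control. The cold replicates were farther apart than the control replicates, and both were well above either control value. The gene rose 2.94-fold (log2 fold change 1.56, SE 0.17, 95% interval 1.15 to 1.96, adjusted p = 0.00034). This gene supplied 50.3% of the family's difference of 195 FPKM, and Zm00001d017274 supplied 32.4%.

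The relative levels of these neighbours are given as a description. The FPKM of Zm00001d017275 was 0.694 and 0.997 times that of Zm00001d017274 in cold, against 0.428 and 0.461 times in control. Both cold ratios thus exceeded both control ratios, and in cold replicate 2 the genes stood at nearly the same level. In shares of the summed PAL FPKM, Zm00001d017274 made up 45.6 ± 6.85% in cold and 58.0 ± 0.966% in control, and Zm00001d017275 made up 37.8 ± 3.94% in cold and 25.8 ± 0.910% in control (SD, n = 2 each). An exact two-sided permutation test of the log2 ratio gave p = 0.333, the smallest value that 2 libraries against 2 allow (adjusted p = 0.5 over 3 ratios between members).

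**Figure D2:**
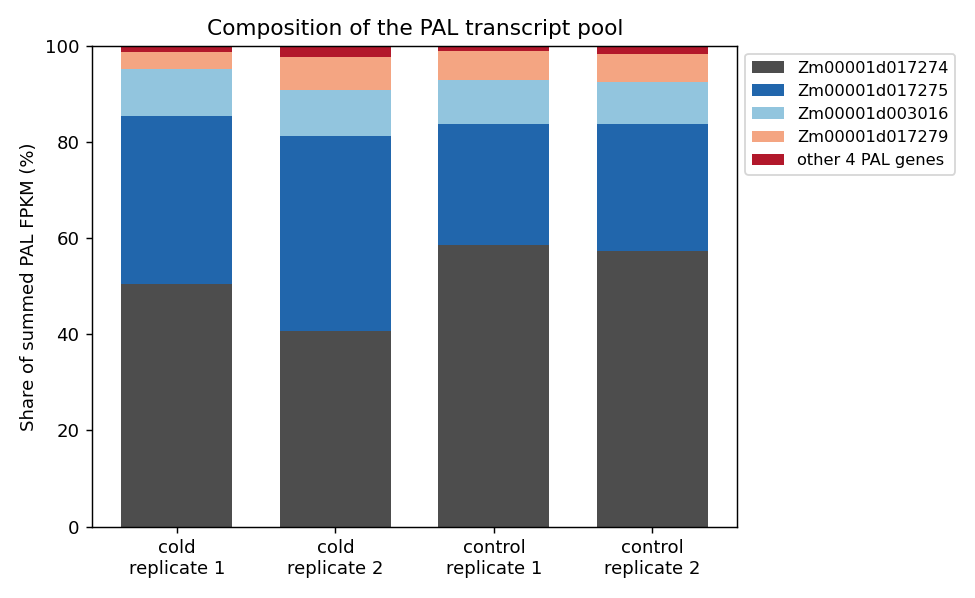
Share of the summed PAL FPKM (percent) taken by the leading PAL genes in each library, cold on the left and control on the right. The least abundant PAL genes are drawn together as a joint segment. Zm00001d017274 takes 50.4% and 40.7% in the cold libraries and 58.7% and 57.3% in the control libraries, and Zm00001d017275 fills most of the difference.

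Both other PAL genes of this stretch of chromosome 5 were far less abundant. Zm00001d017279, which has a single exon and lies on the plus strand (191539072 to 191541219), had 13.2 and 28.3 FPKM in cold, against 11.6 and 11.3 FPKM in control. Cold replicate 2 stood well above the other 3 libraries, which lay close together. Over all libraries its log2 fold change of 0.86 passed the test (SE 0.31, adjusted p = 0.047), but it was 0.21 without cold replicate 2 (adjusted p = 0.18) and 1.31 without cold replicate 1. Without control replicate 1 or control replicate 2 the log2 fold change was about as large, at 0.89 and 0.83, but the call was lost (adjusted p = 0.061 and 0.14).

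Zm00001d017276, also of a single exon, lies 3195 bases beyond Zm00001d017275 on the same strand (191474696 to 191476810). It had 31 and 37 fragments in cold, against 8 and 21 in control. The groups did not overlap, but the control pair differed by 1.54 on the log2 scale, a wider gap than in 98.4% of tested genes. Its mean FPKM was above that of only 6.8% of tested genes, and the part of counting error in this gap was not tested. With a log2 fold change of 1.63 and an SE of 0.57 the gene passed the test (adjusted p = 0.042). It was 1.04 without control replicate 1 (adjusted p = 0.20), 1.34 without cold replicate 2 (adjusted p = 0.16) and 2.59 without control replicate 2. The ratio of summed fragments, scaled by library size, was 3.13 with an exact 95% counting interval of 1.996 to 5.01. Fragments carry no molecular identifiers, so counting intervals and detection floors cover counting error only.

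**Figure D3:**
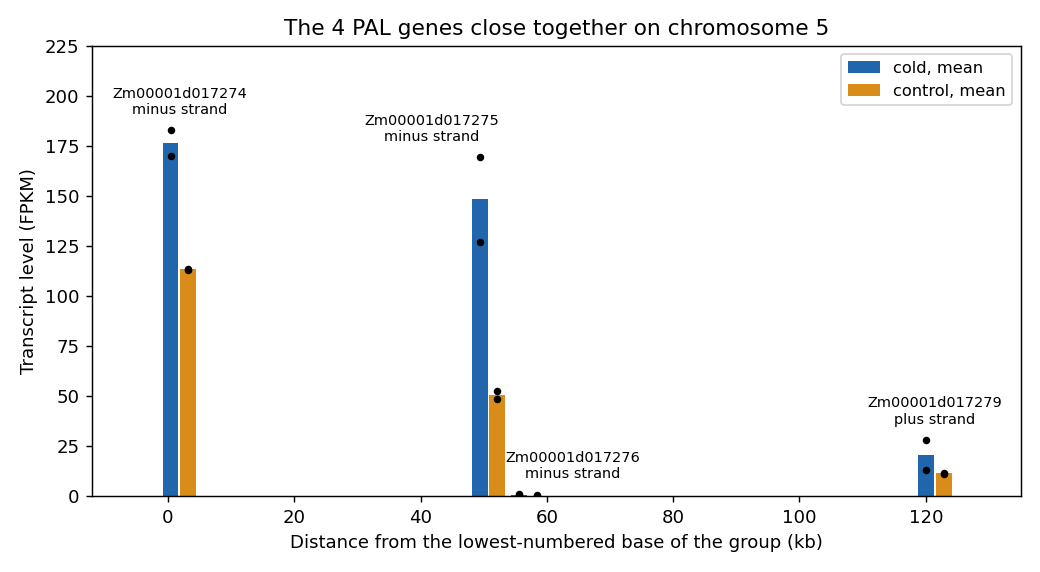
Mean level (FPKM) of the 4 PAL genes on chromosome 5 against their distance in kb from the lowest-numbered base of the group, with cold bars (blue) left of control bars (orange) and a black point for each library. The high levels belong to the first 2 genes, with cold means of 177 and 148 FPKM, while Zm00001d017276 between them and Zm00001d017279 has a cold mean of 0.782 FPKM.

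On chromosome 2 another pair of PAL genes, 67574 bases apart on the plus strand, differed in level. Zm00001d003016 (29538173 to 29541434, 3 exon blocks) had 35.3 and 39.6 FPKM in cold, against 17.6 and 17.6 FPKM in control. The replicates were close in both groups and the groups were well apart. Its log2 fold change of 1.09 (SE 0.12, adjusted p = 0.00032) stayed between 0.87 and 1.17 under the 11 alternative settings.

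Zm00001d003015 (29467931 to 29470598, 2 exon blocks) had 3.09 and 7.79 FPKM in cold, against 1.86 and 2.95 FPKM in control. The lower cold library was only slightly above the higher control library. The cold pair differed by 1.33 on the log2 scale, more than in 96.9% of tested genes, where the median gap between the cold replicates was 0.24. The log2 fold change of 1.17 (SE 0.42, adjusted p = 0.047) became 0.38 without cold replicate 2 (adjusted p = 0.30), 0.89 without control replicate 1 (adjusted p = 0.12) and 1.70 without cold replicate 1. Zm00001d003016 stood at 11.4 and 5.08 times the FPKM of this gene in cold and at 9.48 and 5.97 times in control, so the ratio ranged widely within each group (exact two-sided permutation test, p = 1).

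The PAL genes on other chromosomes gave few or no fragments. Zm00001d051166, which has a single exon on chromosome 4, plus strand (146846109 to 146848259), had 30 and 53 fragments in cold, against 10 and 8 in control. Each cold library held several times the control level, and the cold pair differed by 1.13 on the log2 scale. Zm00001d051166 passed the low-count filter through the cold libraries alone, so a rise was built into its being tested. Its p-values and intervals are therefore given as a description. Of the tested members it showed the largest rise, at 2.65 on the log2 scale (SE 0.54, 95% interval 1.38 to 3.91, adjusted p = 0.005). The value was 1.997 without cold replicate 2 (adjusted p = 0.036) and 3.12 without cold replicate 1, and the ratio of summed fragments was 6.15 with an exact 95% counting interval of 3.66 to 10.9. In level it remained a minor transcript, at 0.958 ± 0.509 FPKM in cold and 0.149 ± 0.00868 FPKM in control (SD, n = 2 each), which was 0.240% and 0.0761% of the summed PAL FPKM.

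Zm00001d033286, with 2 exon blocks on the plus strand of chromosome 1 (257622515 to 257624760), was at 0 fragments in all 4 libraries. A count of 0 allows up to 3 fragments, which corresponds to between 0.0502 and 0.0683 FPKM by library totals. Reads that map to several places were not counted, so PAL copies of near-identical sequence may be under-counted, and a zero does not show that the gene is silent.

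Bm3 (Zm00001d049541), for the methyltransferase, was the most abundant of the 10 transcripts by FPKM in each library. The gene lies on the minus strand of chromosome 4 (33817769 to 33820095) with 2 exon blocks. It had 287 and 317 FPKM in cold, against 143 and 149 FPKM in control. The groups were far apart compared with the gaps inside them, and the fold change was 2.07 (log2 1.05, SE 0.14, adjusted p = 0.00073). Its mean level in FPKM was above that of 98.5% of tested genes.

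Bm1 (Zm00001d015618), for the dehydrogenase of the last reduction, lies on the minus strand of chromosome 5 (101493553 to 101498009) with 3 exon blocks. It had 80.6 and 90.1 FPKM in cold, against 30.3 and 24.9 FPKM in control. The gene rose 3.09-fold (log2 fold change 1.63, SE 0.15, 95% interval 1.28 to 1.97, adjusted p = 0.00014). Its log2 fold change exceeded that of 91.6% of tested genes. Bm3 stood at 3.56 and 3.51 times the FPKM of bm1 in cold and at 4.71 and 5.99 times in control, ratios that did not overlap between groups (exact two-sided permutation test, p = 0.333, the smallest possible here; adjusted p = 0.5).

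**Figure D4:**
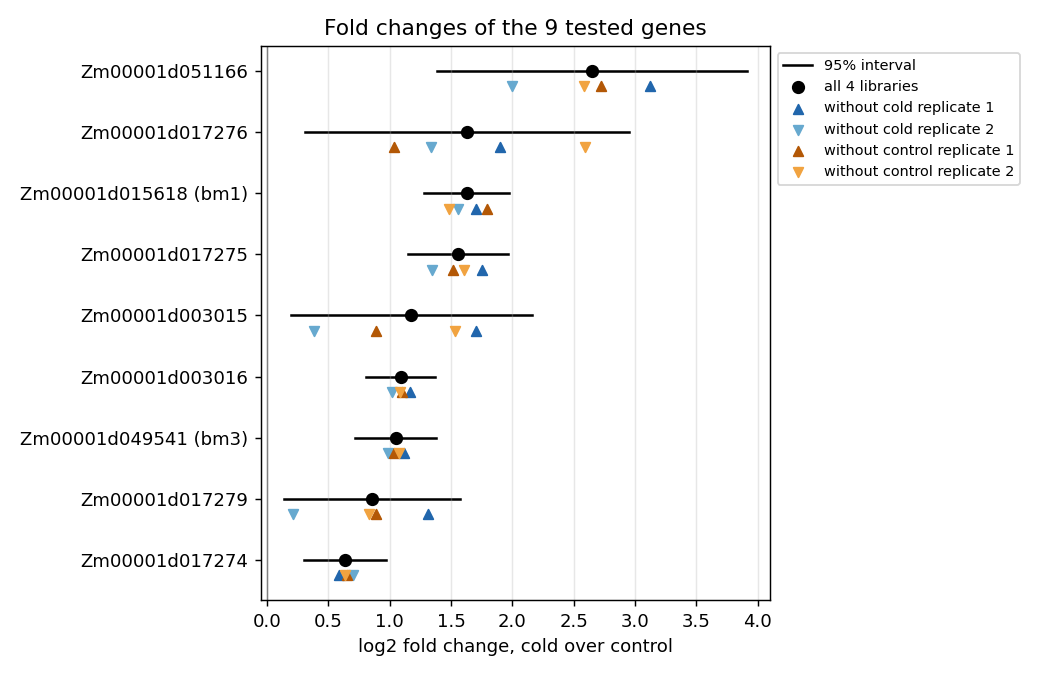
Log2 fold change, cold over control, of the 9 tested genes (black points) with 95% intervals (lines) and the values with 1 library left out (triangles). The points run from 0.64 for Zm00001d017274 to 2.65 for Zm00001d051166, and the widest scatter of triangles belongs to genes whose replicates disagree, such as Zm00001d017276 and Zm00001d003015.

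The calls differed in how they held under other settings. Zm00001d003016, Zm00001d017275, Zm00001d051166, bm1 and bm3 were called higher under every alternative setting that kept them in the test, and the other 4 tested genes lost the call under at least 1. Under the main filter Zm00001d051166 entered the test through its cold libraries alone, which favoured that direction. The filter of 5 CPM in 2 libraries dropped it. With upper-quartile scaling or with library totals alone, 4 PAL genes were called higher, and these settings put the median log2 fold change of all tested genes at -0.19 and -0.24. No tested gene changed direction under the settings that kept it, 10 for Zm00001d017276 and Zm00001d051166 and 11 for the other 7.

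The order of levels was nearly the same in both conditions. In cold the FPKM means ran from bm3 (302) over Zm00001d017274 (177), Zm00001d017275 (148), bm1 (85.4), Zm00001d003016 (37.4), Zm00001d017279 (20.7) and Zm00001d003015 (5.44) to Zm00001d051166 (0.958) and Zm00001d017276 (0.782). In control they ran from bm3 (146) over Zm00001d017274 (113), Zm00001d017275 (50.4), bm1 (27.6), Zm00001d003016 (17.6), Zm00001d017279 (11.4) and Zm00001d003015 (2.40) to Zm00001d017276 (0.254) and Zm00001d051166 (0.149). The lowest 2 genes overlapped in both conditions and so cannot be ordered. Zm00001d017274 and Zm00001d017275 differed in cold by less than the SD of the second, 30.0 FPKM, whereas in control their libraries were far apart.

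**Figure D5:**
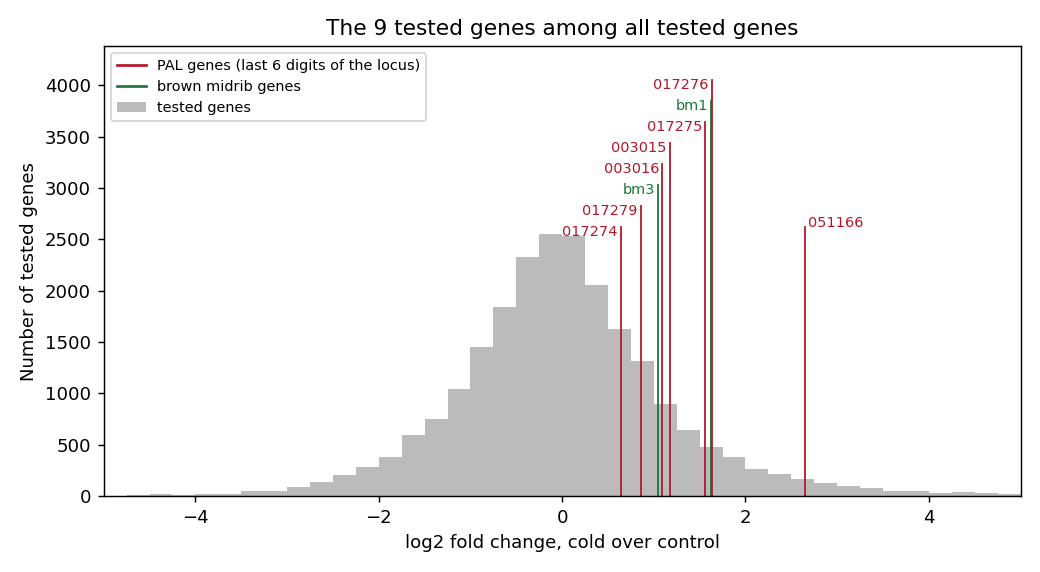
Number of tested genes by log2 fold change, cold over control, in bins of 0.25 (grey), with lines for the 7 tested PAL genes (red) and the brown midrib genes (green). The 9 lines lie right of 0, from 0.64 to 2.65, and 41 genes below -5 and 145 above 5 fall outside the axis.

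Loci around the members were examined as well, by position alone. No annotated locus overlaps a member. Between the PAL genes of chromosome 5 lie 2 very short loci with no fragment in any library, and the next locus on either side of the group also had none. Of 14 loci beside or between the members, 4 could be tested, of which 3 were called higher and 0 lower in cold, against 27.0% in each direction over all tested genes. With so few loci the count says nothing about the neighbourhood. One of the 3, the locus before Zm00001d033286, had 39 and 32 fragments in cold, against 11 and 19 in control. Its cold libraries alone would have kept it in the test, so the low-count filter favoured this direction but did not fix it. The most abundant of them ends 3184 bases before bm3, on the opposite strand (33810533 to 33814584). It had 137 and 124 CPM (fragments scaled to a common library size) in cold, against 85.3 and 75.5 CPM in control, a log2 difference of 0.69 (SE 0.13, adjusted p = 0.0032).

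Other genes with the same profile over the 4 libraries were sought among 23099 tested nuclear genes, by the Euclidean distance between log2 CPM values centred on each gene's mean. The closest to Zm00001d017274 was Zm00001d034896 on chromosome 1 (distance 0.0125), with 56.7 and 52.4 CPM in cold, against 34.7 and 34.8 CPM in control. The closest to bm1 was Zm00001d036283 on chromosome 6 (distance 0.0333), with 184 and 211 CPM in cold, against 69.3 and 56.8 CPM in control. Within the list, the member closest to bm3 was Zm00001d003016 (distance 0.0605), and 20 other genes lay closer to bm3 than that. The member closest to bm1 was Zm00001d017275 (distance 0.346), with 455 other genes closer. For Zm00001d017274 the closest member was bm3 (distance 0.446), with 3978 other genes closer. With 4 libraries in 2 conditions, many genes share such a profile, so these distances describe the libraries only.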

How the data were processed

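Raw fragment counts per gene were deposited in a single table, which the authors made with featureCounts 1.6.4 from release 43 of the B73 RefGen_v4 annotation, per the file headers. Read pairs were counted as fragments, strand was not used, and options that would count multi-mapping or overlapping reads were not set. The submitters' processing notes name HISAT2 and fastp without a version. Exon lengths are other values deposited in the same table, equal to the merged exons of each member.

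The 10 members, the lists and the tests were chosen with earlier results of these data known. Genes were filtered with edgeR's filterByExpr (minimum count 10, minimum total 15), scaled by TMM (factors 0.966 and 0.894 in cold, 1.05 and 1.10 in control) and tested two-sided for condition, the sole model term, by edgeR's quasi-likelihood F test (edgeR 4.0.16, R 4.3.3), with Benjamini-Hochberg adjustment over 23169 genes. The test was run on simulated data first. Standard errors are the log2 fold change divided by the square root of F. Exon blocks are merged annotated exons. Replicates differed by more than sampling noise (chi-square per degree of freedom 25.0 in cold, 11.3 in control, genes with at least 20 fragments).

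The named genes are all members and the closest profiles to the leading PAL gene and to bm1. For bm3 only the closest member is named, and neighbours by position are given without identifiers. Of 44146 nuclear Zm identifiers, 0 matched the RefSeq gene table (Zm-B73-REFERENCE-NAM-5.0), so the other genes of the pathway were not analysed here. No sequence is shown. The alternative settings were DESeq2 1.42.0, RLE or upper-quartile factors, library totals alone, no filter, at least 5 CPM in 2 libraries, a replicate block, and leaving out each library.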

Additional observations from a re-analysis of the deposited data

How the results depend on the processing

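The count of PAL genes called higher in cold, 7 of 8, was 4 with upper-quartile factors, 4 with library totals alone and 3 with the filter of 5 CPM in 2 libraries, which drops Zm00001d017276 and Zm00001d051166 from the test. Under that filter Zm00001d003015 and Zm00001d017279 also lost the call at nearly the same log2 fold changes, 1.16 and 0.84 (adjusted p = 0.0551 and 0.0545). It ranged from 3 to 7 with 1 library left out, at 4 without cold replicate 2 and 3 without control replicate 1. It was 7 with RLE factors, DESeq2, no low-count filter and the replicate block, and 0 PAL genes were lower under any of these settings. Both brown midrib genes were called higher under all 11. With the replicate block, 5829 genes were called higher and 5808 lower. Across genes, the difference between replicates 1 and 2 in cold correlated with that in control at r = -0.06. With a single such difference per condition, this value cannot show whether the replicate numbers pair the libraries. The log2 ratio of summed PAL fragments, 0.97, became 0.81 with upper-quartile factors and 0.76 with library totals. Over all genes, 6256 were higher and 6259 lower. With library totals 4768 were higher and 8188 lower, and with upper-quartile factors 5199 and 7849. The lower count ranged from 3978, without control replicate 2, to 6397 with 1 library left out. A library left alone in its condition is assumed to vary like the others. Using fragments in place of FPKM moved 7 of the shares of PAL genes by more than their SD, for example to 62.5% for Zm00001d017274 in control. The share measures differ only in the division by exon length. The cause of the other changes was not tested.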
